A study of Mus musculus with 2 samples.

Results

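The results concern 10 genes of the cellular response to low oxygen, followed through the immune cells and rods of the developing mouse retina. The members were taken by symbol, 10 of the 31053 genes listed in the count tables, and all 10 were found there. They are Hif1a and Epas1, which encode oxygen-labile subunits of the hypoxia-inducible factors (HIF), Egln1 and Egln3, which encode the prolyl hydroxylases that mark those subunits for destruction, and the HIF target genes Bnip3, Higd1a, Ddit4, Adm, P4ha1 and Ndrg1. Retinas of C57BL/6J mice were collected at postnatal day 17 from a room air (RA) control group and from a group with oxygen-induced retinopathy (OIR), a model in which pups spend several days in high oxygen, lose part of the retinal capillary bed, and then return to room air, where the retina becomes hypoxic and new vessels grow. No gene was altered in either group. Live cells carrying CD11b and F4/80 were sorted from pooled retinas and profiled as droplet single-cell libraries, 1 per group, so no difference between RA and OIR has a replicate check.

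HIF is regulated mainly at the level of protein. With oxygen present, the prolyl hydroxylases modify its alpha subunits, which are then ubiquitinated and degraded, and when oxygen falls the subunits persist, pair with Arnt and switch on genes for glycolysis, mitochondrial turnover and vessel growth. Egln1 and Egln3 are themselves HIF targets, which makes a negative feedback loop. A Hif1a transcript level therefore says little about HIF activity, and the target transcripts are the usual readout.

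The libraries held 1449 (RA) and 1259 (OIR) barcodes with 12810892 and 9835402 unique molecular identifiers (UMIs), none of the barcodes was shared, and 1295 and 1179 cells were kept. Cells were clustered without the 10 genes or the pathway lists among the clustering genes, and the clusters were named from marker genes as microglia-like (801 RA and 688 OIR cells), macrophage-like (75 and 101), monocyte-like (52 and 89) and rod-like (189 and 153), called microglia, macrophages, monocytes and rods from here on. The name microglia went by default to myeloid clusters not high for the markers of another cell type used in naming. The other 178 RA and 148 OIR cells were left unnamed. All 18 microglial markers were found in microglia, where they summed to 61876 CPM (UMIs scaled to the same total in every class and library) in RA and 59437 CPM in OIR, and the 13 rod markers summed to 146181 and 152689 CPM in rods. Rods lay outside the sort gate and held few UMIs per cell (median 1457 in RA and 1035 in OIR, against 10224 and 6738 in microglia), and microglial markers summed to 4368 and 5006 CPM in them. In monocytes microglial markers summed to 16957 CPM in RA and 25101 CPM in OIR, and the microglial marker C1qa had a UMI in 32.7% and 48.3% of cells. The part of this shift in the monocyte ratios below was not tested. In macrophages microglial markers summed to 35550 CPM in RA and 39512 CPM in OIR, and the 13 rod markers to 1035 and 796 CPM. The part of RNA from other cells in the macrophage values was not tested either. The nuclear RNA Malat1 was lower in OIR in every myeloid class (18134 against 5965 CPM in microglia), and 92.0% of RA but 64.1% of OIR microglia gave it at least 0.1% of their UMIs. Of rods, 4.23% in RA and 3.92% in OIR did, so rods were poor in nuclear RNA. Levels below are UMIs summed over a class and scaled by all UMIs of that class, with exact 95% Poisson intervals, and ratios carry exact conditional 95% intervals. These cover counting error only, not differences between animals or libraries. Without a replicate no p-value can be given, and a gene was called higher or lower by a rule of size alone, a ratio of 2-fold or more at a mean of at least 20 CPM and at least 10 UMIs. Levels are compared between classes and libraries and not between genes.

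**Figure D1:**
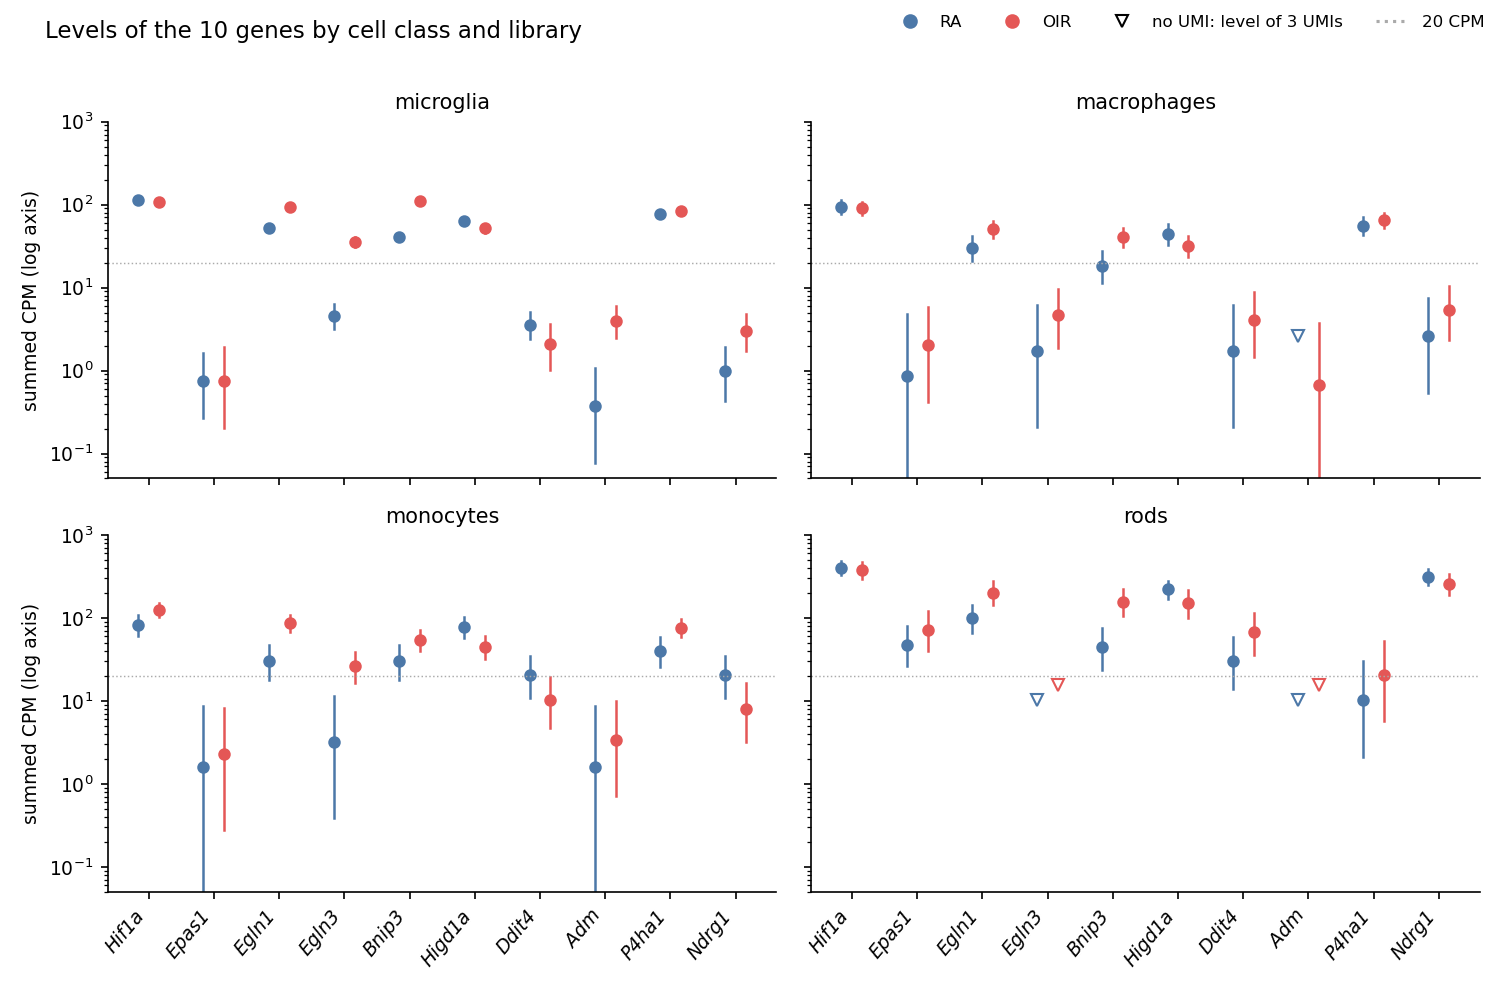
Summed CPM on a log axis for the 10 genes in microglia, macrophages, monocytes and rods, with RA in blue and OIR in red. Points are 1 library each, lines are exact 95% Poisson intervals cut at the foot of the axis, open triangles stand for 0 UMIs and are drawn at the level of 3 UMIs, and the dotted line is the 20 CPM limit. Egln1 and Bnip3 lie higher in OIR in all 4 classes, and Hif1a in microglia stands at 114 CPM in RA and 107 CPM in OIR.

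Among the transcription factor subunits, Hif1a was present in every class and differed little between the libraries, whereas Epas1 was close to absent from the immune cells. In microglia Hif1a stood at 114 CPM (95% interval 106 to 121, 921 UMIs) in RA and 107 CPM (98.4 to 116, 571 UMIs) in OIR, a log2 ratio of −0.08 (−0.24 to 0.07). Macrophages gave 94.9 and 90.3 CPM, a log2 ratio of −0.07 (−0.45 to 0.30). Monocytes were the exception among the 4 classes, with 82.2 CPM in RA and 126 CPM in OIR, a log2 ratio of 0.61 (0.12 to 1.12). Rods carried the highest level, 402 CPM in RA and 378 CPM in OIR, with a log2 ratio of −0.09 (−0.53 to 0.34). Over microglia, the level in rods was higher by 1.83 on the log2 scale in RA (1.54 to 2.10) and by 1.82 in OIR (1.45 to 2.18), where 30.5% and 29.3% of all genes were 2-fold or more higher in rods. The order in RA was rods, microglia, macrophages and monocytes, and in OIR rods, monocytes, microglia and macrophages. In RA the interval of microglia over macrophages included no difference, as did that of macrophages over monocytes, while monocytes lay below microglia (log2 ratio −0.47, −0.90 to −0.06). In OIR monocytes and microglia did not differ beyond counting error (0.23, −0.08 to 0.53), nor did macrophages and microglia (−0.25, −0.53 to 0.03).

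Epas1, which encodes the HIF alpha subunit best known from endothelial cells, gave 6 UMIs in RA microglia and 4 in OIR microglia, 0.739 and 0.750 CPM. Macrophages and monocytes held between 1 and 3 UMIs per library, so no ratio between the libraries could be read. Rods gave 14 UMIs in each library, 47.7 CPM (26.1 to 80.1) in RA and 72.6 CPM (39.7 to 122) in OIR, with a log2 ratio of 0.60 (−0.57 to 1.78). Compared with microglia, rods were higher by 6.01 on the log2 scale in RA (4.54 to 7.68) and by 6.596 in OIR (4.93 to 8.66).

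In microglia both hydroxylases were higher in OIR, and Egln3 by far more than Egln1. Egln1, the main oxygen sensor of the pathway, went from 52.4 CPM (47.5 to 57.6, 425 UMIs) in RA microglia to 94.7 CPM (86.6 to 103, 505 UMIs) in OIR microglia, 1.81-fold higher (1.59 to 2.06). In macrophages it stood at 30.2 and 50.8 CPM (log2 ratio 0.75, 0.16 to 1.37). In monocytes the levels were 30.02 and 86.8 CPM, 2.89-fold higher in OIR (1.73 to 5.06), which met the 2-fold rule. Rods also met it, with 98.9 CPM in RA and 202 CPM in OIR, 2.04-fold higher (1.23 to 3.43). The interval lay above 0 in each of the 4 classes. With cells thinned to 1000 UMIs, the log2 ratio of Egln1 became −0.16 in monocytes and 0.30 in rods, which ended both calls. Shallower cells were left out, 39 of 189 RA and 70 of 153 OIR rods among them. The monocyte value rested on 4 of 52 RA and 6 of 87 OIR cells with a UMI. At 2000 UMIs per cell Egln1 was found in 0 of 51 RA monocytes (0 to 6.98%, exact binomial). In OIR it was found in 11 of 84 (6.72 to 22.2%).

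Egln3, the hydroxylase whose transcript is known to be strongly induced by HIF, was called higher in OIR in microglia. It gave 37 UMIs in RA (4.56 CPM, 3.21 to 6.29) and 190 UMIs in OIR (35.6 CPM, 30.7 to 41.1), 7.81-fold higher in OIR (5.47 to 11.4). These UMIs came from 35 of 801 RA and 89 of 688 OIR cells. In OIR the 5% of microglia with the most Egln3 UMIs held 70.5% of them, and 1 cell held 13. Egln3 passed the level filter in microglia through its OIR level alone. Monocytes showed a similar ratio on few UMIs, 2 in RA (3.16 CPM) and 23 in OIR (26.3 CPM), 8.31-fold (2.05 to 72.7) and under the level filter. Macrophages stayed low in both libraries, with 2 UMIs in RA and 7 in OIR (1.73 and 4.68 CPM, log2 ratio 1.44, −0.95 to 4.74). In OIR, microglia and monocytes did not differ beyond counting error (log2 ratio of monocytes over microglia −0.44, −1.13 to 0.19), whereas macrophages lay below microglia (−2.93, −4.26 to −1.86). No Egln3 UMI was found in rods of either library, where 3 UMIs would be 10.2 CPM in RA and 15.5 CPM in OIR, and rods in OIR were lower than microglia (the upper end of the log2 ratio was −0.88).

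Shares of cells were read at equal depth. With each cell thinned to 1000 UMIs (787 RA and 665 OIR microglia, with 14 and 23 shallower cells left out), Egln3 was found in 0.762% of RA cells (0.280 to 1.65%, exact binomial) and 3.46% of OIR cells (2.20 to 5.14%). The unthinned shares were 4.37% and 12.9%. In rods thinned the same way it was found in 0 of 150 RA and 0 of 83 OIR cells. Egln1 was found in 4.57% of RA and 7.67% of OIR microglia at that depth, intervals that overlapped (3.22 to 6.28% and 5.76 to 9.96%), against 38.8% and 40.7% of cells unthinned. At 2000 UMIs per cell, with 30 RA and 100 OIR microglia left out, the shares of Egln1 were 10.1% (8.08 to 12.5%) and 16.7% (13.7 to 19.9%).

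The mitochondrial genes went in different directions. Bnip3, which encodes an outer membrane receptor for the removal of mitochondria by autophagy, was higher in OIR in all 4 classes and 2-fold or more higher in 3 of them. Microglia gave 334 UMIs in RA (41.2 CPM, 36.9 to 45.8) and 592 in OIR (111 CPM, 102 to 120), a ratio of 2.70-fold (2.35 to 3.09). Macrophages went from 18.1 to 40.8 CPM (2.25-fold, 1.35 to 3.89) and rods from 44.3 to 155 CPM (3.51-fold, 1.78 to 7.33). Monocytes, with 30.02 and 53.7 CPM, were below the 2-fold rule (1.79-fold, 1.03 to 3.23). Unthinned, a Bnip3 UMI was found in 23.1% of RA and 22.5% of OIR monocytes, and 1 OIR cell held 9 of the 47 OIR UMIs. At 1000 UMIs per cell it was found in 0 of 52 RA and 5 of 87 OIR monocytes. The UMIs were unevenly spread over cells. In OIR the 5% of microglia with the most Bnip3 UMIs held 47.6% of them, and up to 22 UMIs came from 1 cell, while in RA the corresponding values were 31.7% and 7 UMIs. At 1000 UMIs per cell, Bnip3 was found in 3.94% of RA microglia (2.69 to 5.54%) and 9.92% of OIR microglia (7.76 to 12.5%), against 30.6% and 34.4% unthinned. As a mean over macrophages instead of a sum, its log2 ratio was 0.88, under the 2-fold line.

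Higd1a, which encodes a small inner membrane protein of the respiratory chain, was lower in OIR in all 4 classes, though never by 2-fold. Microglia gave 64.1 CPM (58.7 to 69.8) in RA and 51.9 CPM (46.0 to 58.4) in OIR, a log2 ratio of −0.30 (−0.52 to −0.09). Monocytes had 77.4 and 44.5 CPM, a log2 ratio of −0.80 (−1.44 to −0.16). For macrophages (44.0 and 31.4 CPM) and rods (222 and 150.3 CPM) the intervals reached past 0, with log2 ratios of −0.49 (−1.09 to 0.12) and −0.56 (−1.24 to 0.09). With cells thinned to 1000 UMIs the log2 ratio was 0.0020 in microglia and 0.57 in macrophages. The macrophage value rested on 1 of 75 RA and 2 of 101 OIR cells with a UMI. At 2000 UMIs per cell Higd1a was found in 6 of 74 RA and 3 of 101 OIR macrophages, with intervals that overlapped.

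**Figure D2:**
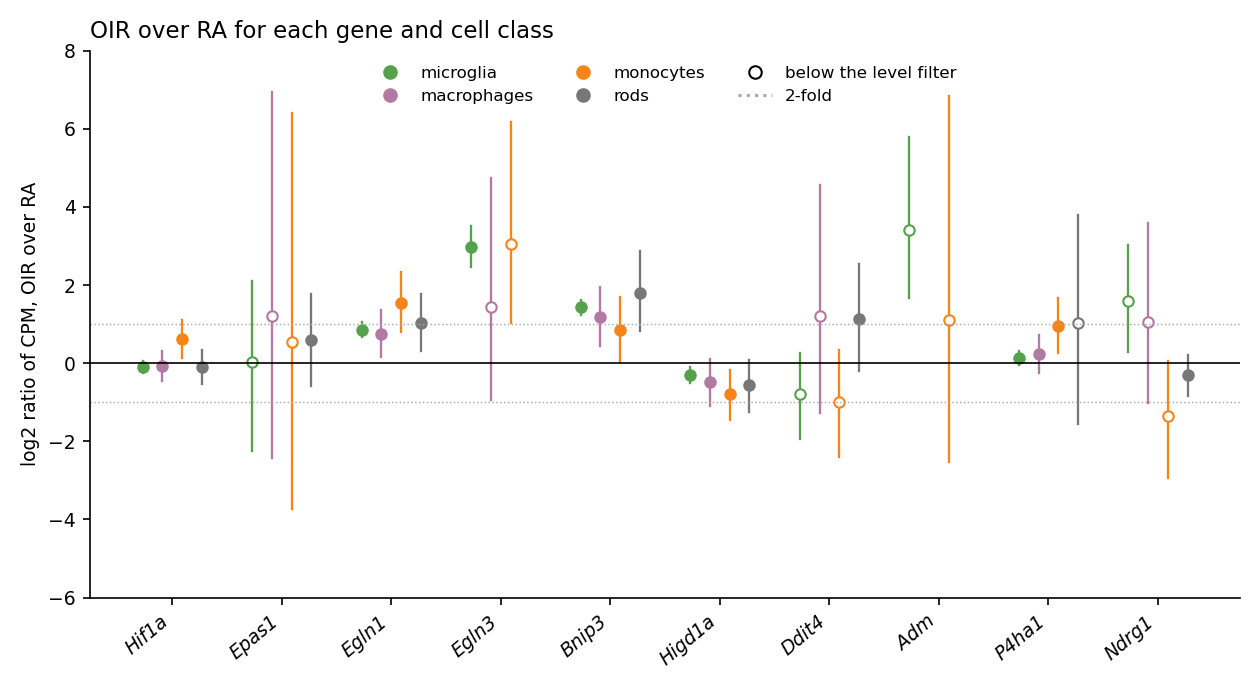
Log2 ratio of CPM, OIR over RA, for each gene in microglia, macrophages, monocytes and rods, with exact conditional 95% intervals. Open points lie below the level filter, dotted lines mark 2-fold, and genes with 0 UMIs in either library of a class are not drawn. Egln3 stands at 2.97 in microglia, Bnip3 between 0.84 and 1.81, and Higd1a below 0 in every class.

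Of the remaining targets, none was called higher in a myeloid class. P4ha1, which encodes the catalytic subunit of collagen prolyl hydroxylase, was similar in both libraries in microglia, with 76.5 CPM (70.6 to 82.8) and 84.3 CPM (76.7 to 92.5), a log2 ratio of 0.14 (−0.04 to 0.32). Macrophages gave 55.2 and 64.9 CPM (log2 ratio 0.23, −0.24 to 0.71). Monocytes gave 39.5 and 76.5 CPM, 1.94-fold higher in OIR (1.21 to 3.20), just under the 2-fold rule. In rods 3 and 4 UMIs were found, 10.2 and 20.7 CPM, below microglia in RA (log2 ratio −2.90, −5.19 to −1.35). The microglial marker C1qa stood at 34.1 CPM in RA and 72.6 CPM in OIR rods, against 6084 and 8876 CPM in microglia. The part of microglial RNA in the rod level of P4ha1 was not tested. An unnamed cluster of Malat1-rich photoreceptors gave 50.5 CPM in RA and 90.1 CPM in OIR, so the low level was that of the Malat1-poor rods.

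Ndrg1, a stress-responsive gene widely used as a hypoxia marker, showed the opposite distribution. Rods carried 314 CPM (253 to 385, 92 UMIs) in RA and 254 CPM (188 to 336, 49 UMIs) in OIR, a log2 ratio of −0.30 (−0.84 to 0.21). In microglia only 8 and 16 UMIs were found, 0.986 and 2.999 CPM, a log2 ratio of 1.60 (0.30 to 3.04) below the level filter. As a mean over cells this ratio turned to −0.56, and it was 3.02 without integration. Rods lay above microglia by 8.31 on the log2 scale in RA (7.27 to 9.57) and by 6.40 in OIR (5.56 to 7.32). In monocytes 13 RA UMIs (20.5 CPM) stood against 7 OIR UMIs (7.99 CPM), and 7 of the 13 came from 1 cell.

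Ddit4, whose product restrains mTORC1 signalling, also had a higher level in rods than in microglia, by 3.102 on the log2 scale in RA (1.84 to 4.22, below the level filter) and by 5.03 in OIR (3.76 to 6.33). Rods gave 9 UMIs in RA (30.7 CPM, 14.0 to 58.2) and 13 in OIR (67.4 CPM, 35.9 to 115), which met the 2-fold rule at 2.20-fold with an interval that included no difference (0.87 to 5.82). Among rods with at least 2000 UMIs its log2 ratio was −0.000713, and of the rods named above only 35 in RA and 17 in OIR were that deep. Microglia held 29 UMIs in RA and 11 in OIR (3.57 and 2.06 CPM, log2 ratio −0.79, −1.94 to 0.25). Monocytes had 20.5 CPM in RA and 10.3 CPM in OIR, with an interval that included no difference (log2 ratio −0.999, −2.41 to 0.34).

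Adm, which encodes the vasoactive peptide adrenomedullin, was rare in the 4 classes, and most of its UMIs there came from OIR microglia. Microglia held 3 UMIs in RA and 21 in OIR (0.370 and 3.94 CPM), a ratio of 10.6-fold with a wide interval (3.18 to 55.7) and below the level filter. At 1000 UMIs per cell the transcript was found in 0 of 787 RA and 5 of 665 OIR microglia (0.752%, 0.245 to 1.75%). Macrophages gave 0 and 1 UMIs, monocytes 1 and 3, and rods none.

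Counted by the rule of size, 2 of the 6 members that passed the level filter in microglia were 2-fold or more higher in OIR (Egln3 and Bnip3), where 7.19% of all 5508 genes that passed were. Macrophages gave 1 of 5 (Bnip3) against 7.16% of all genes, monocytes 1 of 5 (Egln1) against 6.65%, and rods 3 of 7 (Egln1, Bnip3 and Ddit4) against 12%. No member was 2-fold or more lower in a class, where the share of all genes was 4.99% in microglia, 5.04% in macrophages, 6.34% in monocytes and 9.56% in rods. The median log2 ratio of the members that passed was 0.50 in microglia, 0.23 in macrophages, 0.84 in monocytes and 0.60 in rods, beside 0.05, 0.13, 0.11 and 0.16 for all genes that passed. A gene could pass through the library in which it was high, as Egln3 did in microglia. These counts and medians therefore describe the members and do not test them. Egln3 stood close to the level limit in microglia, and under 8 other settings it fell below that limit, while its log2 ratio stayed between 2.24 and 3.41 over all 16 settings that gave one. In rods, centring each ratio on the median of all genes left Bnip3 as the 1 member called.

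The promoters of the members were read for the short core that HIF recognises. RefSeq start sites (GRCm38.p6, the mm10 assembly) gave a window of 300 bases, 250 before and 50 after the start, for 8 of the 10 members. The core was searched as ACGTG or GCGTG on either strand. All 8 windows held at least 1 core, from 1 in Egln3 to 5 in Bnip3, but so did 43.8% of the 32851 promoters in the table, and 67.5% of the 15020 whose number of CG pairs lay in the range of the members (9 to 60). The 250 bases before the start are printed for Bnip3, Egln3 and Egln1, each called higher in OIR in at least 1 class, and for P4ha1 and Higd1a, called in none, with the cores in capitals.
Bnip3: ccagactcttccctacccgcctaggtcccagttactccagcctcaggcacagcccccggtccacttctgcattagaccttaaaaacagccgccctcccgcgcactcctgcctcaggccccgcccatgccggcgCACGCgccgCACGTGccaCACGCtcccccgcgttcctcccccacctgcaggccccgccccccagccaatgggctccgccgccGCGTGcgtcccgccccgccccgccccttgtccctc
Egln3: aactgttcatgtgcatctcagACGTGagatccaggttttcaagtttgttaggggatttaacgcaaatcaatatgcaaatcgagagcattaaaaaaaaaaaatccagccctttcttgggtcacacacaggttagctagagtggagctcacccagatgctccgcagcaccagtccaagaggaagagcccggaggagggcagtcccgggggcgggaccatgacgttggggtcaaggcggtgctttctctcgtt
Egln1: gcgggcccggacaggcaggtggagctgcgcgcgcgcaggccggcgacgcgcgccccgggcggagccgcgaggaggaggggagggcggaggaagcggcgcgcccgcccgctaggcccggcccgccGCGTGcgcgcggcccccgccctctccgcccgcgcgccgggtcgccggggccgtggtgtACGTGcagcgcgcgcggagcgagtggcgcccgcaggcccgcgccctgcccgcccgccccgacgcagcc
P4ha1: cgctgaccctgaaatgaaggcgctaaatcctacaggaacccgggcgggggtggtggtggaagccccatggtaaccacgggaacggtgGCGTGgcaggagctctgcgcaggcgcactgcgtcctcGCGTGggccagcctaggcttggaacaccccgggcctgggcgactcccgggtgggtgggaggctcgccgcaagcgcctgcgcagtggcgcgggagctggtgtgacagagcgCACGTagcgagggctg
Higd1a: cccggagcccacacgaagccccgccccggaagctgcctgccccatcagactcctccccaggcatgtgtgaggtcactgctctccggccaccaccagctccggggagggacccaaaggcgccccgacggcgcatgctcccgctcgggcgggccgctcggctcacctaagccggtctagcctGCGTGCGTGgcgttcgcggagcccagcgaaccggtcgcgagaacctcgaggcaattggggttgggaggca
The Bnip3 sequence lies at chr7:138909507-138909756, Egln3 at chr12:54203875-54204124, Egln1 at chr8:124949255-124949504 and Higd1a at chr9:121857797-121858046, all on the minus strand, and P4ha1 at chr10:59323046-59323295 on the plus strand. In Bnip3, 4 of the 5 cores begin at positions −117, −108, −107 and −99 from the start, and those at −108 and −107 overlap on opposite strands. Higd1a holds 2 cores before its start and 1 after it. The cores describe the letters only, and binding was not measured.

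Microglia were not uniform, so the genes were also followed through the microglial clusters. Clusters 1 (led by Rrad and Ddit3) and 0 (led by Egr3 and Tnf) held most cells and were rich in Malat1. Cluster 2 (led by Cryba4, Fabp5 and glycolytic genes, 69 RA and 138 OIR cells) and cluster 6 (led by Gclm and Mmp12, 6 RA and 58 OIR cells) were poor in it, and clusters 5 and 7 were led by genes of dividing cells. Within each of the 3 clusters with at least 50 cells in both libraries, Bnip3 and Egln3 were 2-fold or more higher in OIR. Bnip3 went from 37.7 to 84.2 CPM in cluster 1 (log2 ratio 1.16, 0.76 to 1.55), from 45.8 to 112 CPM in cluster 0 (1.29, 1.001 to 1.58) and from 28.4 to 232 CPM in cluster 2 (3.03, 1.93 to 4.39). Egln3 went from 3.38 to 24.05 CPM in cluster 1 (2.83, 1.82 to 3.91), from 5.38 to 36.2 CPM in cluster 0 (2.75, 2.02 to 3.55) and from 8.10 to 88.9 CPM in cluster 2 (3.46, 1.498 to 6.56). Its mean level in cluster 1 lay under the 20 CPM limit. The cluster 2 ratio of Egln3 rested on 2 RA and 36 OIR UMIs. In cluster 2 the marker list with the highest median ratio over other cells was that of lens. C1qa, a microglial marker also found in macrophages, had a UMI in 76.8% of its RA and 96.4% of its OIR cells. Ptprc, the gene of CD45, had one in 33.3% and 18.1% of cluster 2 cells and in 17.2% of OIR cluster 6 cells. In OIR the Ptprc shares were 80.8% in cluster 1 and 87.0% in cluster 0, whose cells held more UMIs, and depth was not equalised. At least 1% lens RNA was found in 8 RA and 2 OIR microglia, and without these cells the log2 ratios over all microglia were 1.43 for Bnip3 and 2.96 for Egln3, while the part of lens RNA in the cluster 2 values was not tested. Egln1 log2 ratios ran from 0.58 to 1.03 over these clusters, each with an interval above 0. The share of all genes 2-fold or more higher in OIR was 3.24% in cluster 1, 5.21% in cluster 0 and 19.6% in cluster 2. Hif1a stayed between 0.05 and 0.48, and Higd1a ran from −0.81 in cluster 1, where the levels were 66.3 and 37.9 CPM, to 0.36 in cluster 2.

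**Figure D3:**
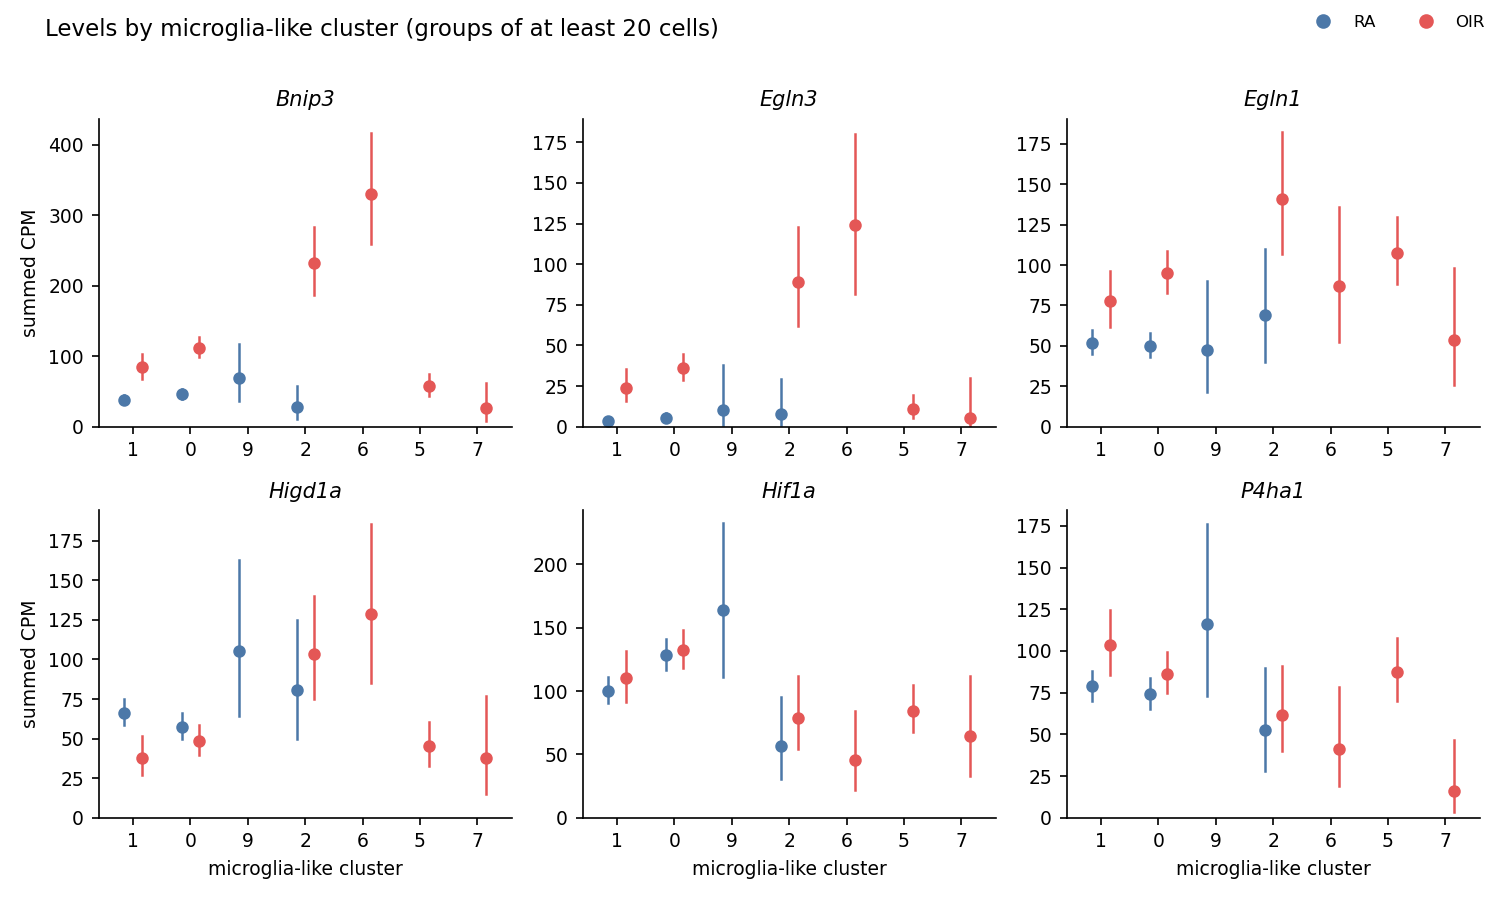
Summed CPM of Bnip3, Egln3, Egln1, Higd1a, Hif1a and P4ha1 by microglia-like cluster, RA in blue and OIR in red, with exact 95% Poisson intervals and only groups of at least 20 cells. Bnip3 and Egln3 have their highest OIR levels in clusters 6 and 2 (330.5 and 232 CPM for Bnip3), where Hif1a stands at 45.9 and 79.0 CPM against 133 and 110.1 CPM in clusters 0 and 1.

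In OIR the levels of Bnip3, Egln3 and Higd1a were highest in clusters 6 and 2 among the microglial clusters. Hif1a was lower in both than in clusters 1 and 0, and P4ha1 was lower beyond counting error in cluster 6 but not in cluster 2. Bnip3 reached 330.5 CPM (259 to 416) in cluster 6 and 232 CPM (188 to 284) in cluster 2, against 103 CPM in clusters 1 and 0 together. Egln3 reached 124 CPM (81.7 to 180.3) in cluster 6 and 88.9 CPM (62.2 to 123) in cluster 2, against 32.3 CPM. Higd1a followed, with 129 and 104 CPM against 45.0 CPM. Hif1a ran the other way, at 45.9 CPM (22.0 to 84.4) in cluster 6 and 79.0 CPM (54.04 to 112) in cluster 2, against 125 CPM. P4ha1 stood at 41.3 and 61.7 CPM against 91.9 CPM, and in cluster 2 its interval included no difference (log2 ratio −0.57, −1.22 to 0.02). Lower levels were not particular to clusters 6 and 2. Hif1a was also below clusters 1 and 0 in clusters 5, 7 and 9 (84.4, 64.2 and 44.2 CPM), while in cluster 11 the interval included no difference. P4ha1 was lowest in cluster 7 (16.1 CPM), below clusters 1 and 0 (log2 ratio −2.52, −4.80 to −0.96). Its level in cluster 11 (7 cells) was 152 CPM. Of all genes, 33.3% were 2-fold or more lower in cluster 6 than in clusters 1 and 0, and 19.8% in cluster 2. The shares 2-fold or more higher were 8.60% in cluster 6 and 4.99% in cluster 2, and the median log2 ratios of all genes were −0.32 and −0.02. The dividing cluster 5 had 58.3 CPM of Bnip3 and 11.1 CPM of Egln3, both below clusters 1 and 0 (log2 ratios −0.82, −1.25 to −0.42, and −1.55, −2.59 to −0.65), while its Egln1 level was 108 CPM. Among the marker lists, that of red cells had the highest median ratio in clusters 6 and 7, and it summed to 21.2 CPM in RA and 338 CPM in OIR over all microglia. An unnamed cluster of 17 cells led by haemoglobin genes held 0 UMIs of the 10 members. These between-cluster values describe clusters built from the same cells and are no test.

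Cluster 6 gave 23.0 CPM of Malat1 in OIR and cluster 2 gave 158 CPM, so the microglia were also split by that RNA. Among microglia with at least 0.1% Malat1 (737 RA and 441 OIR cells, median 10457 and 9367 UMIs), Bnip3 went from 41.6 to 93.5 CPM (log2 ratio 1.17, 0.96 to 1.38), Egln3 from 4.46 to 27.6 CPM (2.63, 2.08 to 3.22) and Egln1 from 52.1 to 91.3 CPM (0.81, 0.61 to 1.01). Among the 64 RA and 247 OIR cells under that limit, Bnip3 went from 26.7 to 208.5 CPM (2.97, 1.89 to 4.30) and Egln3 from 7.63 to 80.2 CPM (3.39, 1.48 to 6.47). The share of all genes 2-fold or more higher in OIR was 6.22% in the Malat1-rich and 19.8% in the other cells. Egln3 lay below the level filter in the Malat1-rich cells. Higd1a was lower in OIR in the Malat1-rich cells (63.3 and 44.4 CPM, log2 ratio −0.51, −0.75 to −0.27) and not in the others (87.7 and 93.8 CPM, log2 ratio 0.10, −0.59 to 0.84), and the difference between those ratios was not tested.

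The members were next read together in single cells. Microglia were thinned to 2000 UMIs (771 RA and 588 OIR cells, with 30 and 100 shallower cells left out). A UMI of at least 2 of 8 HIF target genes (the 6 targets, Egln1 and Egln3) was found in 7.52% of RA cells (5.76 to 9.62%) and 15.8% of OIR cells (12.96 to 19.0%). At least 3 were found in 1.17% (0.535 to 2.20%) and 4.59% (3.05 to 6.61%), and 4 or more in 0 RA and 9 OIR cells. Among OIR microglia with a Bnip3 UMI, 20.8% (13.2 to 30.3%, 20 of 96) also had one of Egln3, against 4.07% (2.5004 to 6.21%, 20 of 492) of those without. For Egln1 the shares were 31.2% (22.2 to 41.5%) and 13.8% (10.9 to 17.2%), and for Higd1a 22.9% (15.0 to 32.6%) and 8.94% (6.57 to 11.8%). For P4ha1 the intervals overlapped, with 16.7% (9.84 to 25.6%) and 15.4% (12.4 to 18.9%). In RA the corresponding intervals overlapped for all 4 genes, with Egln3 in 0 of 62 and 6 of 709 cells. Cells of all microglial clusters were pooled here, and the levels of Bnip3, Egln3 and Higd1a differed between clusters. The part of that cluster mix in the shares was not tested.

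**Figure D4:**
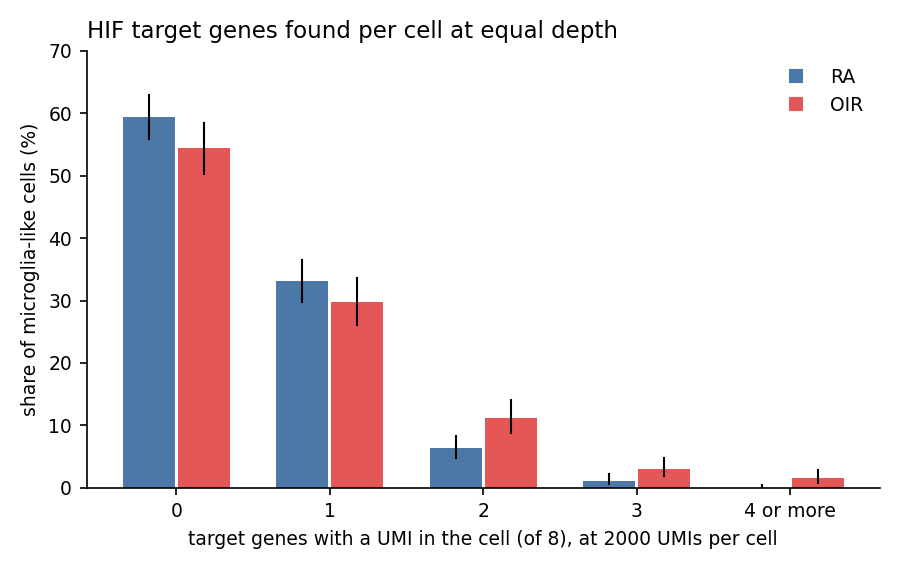
Share of microglia-like cells (%) in which 0, 1, 2, 3 or 4 or more of the 8 HIF target genes had a UMI, each cell thinned to 2000 UMIs, RA in blue and OIR in red, with exact 95% binomial intervals. The OIR bars are higher than the RA bars from 2 genes upward, for example 11.2% against 6.36% at 2 genes.

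The wider pathway was read from lists of other genes, with the same rule of size and the same background. Of the 10 listed HIF subunits and oxygen sensing genes, 7 passed the filter in microglia, none was 2-fold higher and 1 was 2-fold lower, Elob, a subunit of the ubiquitin ligase that binds hydroxylated HIF (184 and 87.0 CPM, log2 ratio −1.08). Arnt, the partner subunit, stood at 29.7 and 20.2 CPM (−0.55, −0.89 to −0.22), Cited2, which competes with HIF for its coactivator, at 430.0 and 313 CPM (−0.46), and Egln2, the third prolyl hydroxylase, at 50.8 and 52.7 CPM (0.05, −0.17 to 0.28). Elob was also 2-fold lower in monocytes (318 and 103 CPM) and rods (600.1 and 166 CPM). Cited2 was 2-fold lower in macrophages (1343 and 535 CPM), and Egln2 was 2-fold higher in rods on 11 and 18 UMIs.

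Among genes of glucose uptake and glycolysis, 11 of 16 that passed were 2-fold or more higher in OIR in microglia, 8 of 16 in macrophages, 10 of 17 in monocytes and 4 of 16 in rods. In microglia Pgk1, Pgam1 and Tpi1 had the largest ratios (log2 2.44, 2.24 and 2.13), while Hk2, which encodes a hexokinase, was the 1 listed gene 2-fold lower (248 and 107 CPM, −1.20), as it also was in macrophages and monocytes. The list's median log2 ratio was 1.48, 1.13, 1.04 and 0.71 in the 4 classes. Of the genes for mitochondria and autophagy, Fam162a passed 2-fold in microglia (18.2 and 60.0 CPM, log2 1.72) and in monocytes, whereas Bnip3l, the paralogue of Bnip3, did not (136 and 176 CPM, log2 0.38, 0.25 to 0.50).

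Among other HIF targets, Ero1l, an oxidase of protein folding, stood at 12.1 and 30.9 CPM in microglia (log2 ratio 1.36, 0.99 to 1.73), and Hmox1, the haem-degrading enzyme, at 1594 and 3225 CPM (1.02, 0.98 to 1.05), both 2-fold or more higher in OIR. Mif, a cytokine, stood at 90.5 and 163 CPM (0.85) and Insig2 at 30.6 and 39.4 CPM (0.36), while Kdm3a, a histone demethylase, stood at 40.8 and 22.3 CPM (−0.87, −1.19 to −0.56), Ccng2 at 59.8 and 51.4 CPM (−0.22) and Plod1, a collagen lysyl hydroxylase, at 92.2 and 89.2 CPM (−0.05). In monocytes Vegfa, the main vessel growth factor, was 2-fold or more higher in OIR, at 14.2 and 65.1 CPM (log2 ratio 2.19, 1.17 to 3.39), as was Hmox1 (446 and 2021 CPM, 2.18, 1.999 to 2.37). Vegfa lay under the level filter in the other 3 classes. It gave 13 UMIs in RA and 48 in OIR in microglia (log2 ratio 2.49, 1.58 to 3.50) and 1 and 28 in macrophages (4.44, 1.84 to 9.79). In microglia P4ha2 (4 and 71 UMIs), Bhlhe40 (5 and 34) and Ankrd37 (17 and 47) were under that filter too. So were Cxcr4 (31 and 110), Car9 (16 and 39) and Plod2 (0 and 9), each gene with an interval above 0. Tfrc, Rora and Lox had intervals that included no difference. In rods 1 of the 5 genes of the list that passed was 2-fold or more higher, Insig2, and none was 2-fold or more lower in any class.

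Ddit4 is known to answer to cell stress and glucocorticoids too, so genes of both responses were counted. None of 9 stress and immediate early genes that passed in microglia was 2-fold higher and 2 were 2-fold lower, Ddit3 (107 and 31.7 CPM, log2 −1.76) and Egr1 (3242 and 1514 CPM, −1.10), with Atf3 next (1842 and 1025 CPM, −0.85). Macrophages gave 0 higher and 2 lower of 9, monocytes 1 higher of 9 (Hspa1a), and rods none of 7. Of the 6 glucocorticoid responsive genes, 4 passed in microglia and none differed by 2-fold (Per1 −0.70, Tsc22d3 −0.68 and Fkbp5 −0.14 on the log2 scale), and Klf9 in monocytes was the 1 gene past 2-fold elsewhere (lower).

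Across 10 groups of microglia (cluster by library, at least 20 cells each), the log2(CPM + 10) values of Bnip3 and Egln3 had a Pearson correlation of 0.97. Egln1 correlated with Egln3 at 0.73 and with Bnip3 at 0.66, Hif1a with P4ha1 at 0.73, and Hif1a with Bnip3 at −0.18. The genes compared were the 2782 with a mean of at least 50 CPM over these groups, a limit that Egln3 did not reach. Among them, the 3 most like Bnip3 were Pld3 (0.95), Lipa (0.93) and Mmp12 (0.92). Those most like Egln3 were Mmp12 (0.97), Bnip3 (0.97) and Pld3 (0.95). The nearest to Egln1 were Glb1, Tmem9b and Ergic3 (0.95, 0.94 and 0.92), to Hif1a Tns3, Asph and Apbb1ip (0.97, 0.97 and 0.96), to P4ha1 Dnajc1, Ptprj and Glg1 (0.98, 0.97 and 0.94), and to Higd1a Ube2r2, Ufsp2 and Rabac1 (0.89, 0.89 and 0.86). The groups share libraries and differ in depth and Malat1 content, so these values are descriptive.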

How the data were processed

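Live CD11b+F4/80+ cells from pooled postnatal day 17 mouse retinas were profiled by 10x 3′ sequencing, 1 library per condition. The authors deposited raw UMI counts per gene and barcode for each library, made with Cell Ranger (3.1.0 in the matrix header) on mm10. The submitters' notes also name Seurat 4.0. Barcodes over 20% mitochondrial UMIs or in the top 2% for genes detected were left out. Doublets were marked with scanpy 1.11.5 (Scrublet), 4 in RA and 2 in OIR, and kept, with their removal as an alternative. Cells were integrated and clustered in Seurat 5.3.0 (R 4.3.3) on 3000 anchor genes less the members and pathway genes. Clusters in which at least 10% of cells had a UMI of Ptprc (CD45) were clustered again as myeloid cells. Clusters were named from fixed markers, by a rule set after the clusters were seen, which did not use the lens and red cell lists. Microglia was the name for remaining myeloid clusters that were not high for another list the rule used, with no microglial marker required. Clusters 1, 5, 7, 9 and 11 had no microglial marker among their 10 leading genes, which were taken against the other myeloid cells. Clusters that met no name, or were far below their library's median UMIs without a marker of the name among their leading genes, stayed unnamed.

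Counts were summed per class and library in Python 3.11.15 (scipy 1.17.1). With 1 library per condition no test was run, and intervals were exact Poisson, conditional and Clopper-Pearson. Only the conditional intervals of ratios were tested on simulated data, drawn as Poisson counts without added spread between cells. All 10 members were named, with the 3 pathway genes per list of largest ratio in microglia, and other pathway genes were named after their values were seen. The members and lists were chosen with earlier results of these data known. The result for 1 listed pathway gene is not reported here, and counts that need it are left out.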

Additional observations from a re-analysis of the deposited data

Results flagged for a closer look

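Outside the 4 named classes, members differed between the libraries in both directions. In an unnamed Malat1-rich photoreceptor cluster (109 RA and 75 OIR cells) the log2 ratio of OIR over RA was 1.002 for Egln1, 0.85 for Bnip3, 0.77 for Ddit4 and 0.84 for P4ha1, while Hif1a was lower in OIR (811 and 684 CPM, −0.25, −0.45 to −0.04). In an unnamed cluster led by Igfbp7, Acta2 and Rgs5 (16 cells in each library) it was 0.95 for Epas1 and 1.67 for Egln1. Egln3 gave 0 RA and 10 OIR UMIs there (lower end of the log2 ratio 1.44). Adm gave 5 RA UMIs (26.1 CPM) and 0 in OIR, with an interval that included no difference. In an unnamed myeloid cluster with few UMIs per cell (27 RA and 9 OIR cells) the log2 ratio was 2.99 for Hif1a, on 4 and 5 UMIs. These cells were left out of the 4 classes. Counting the photoreceptor cluster as rods, an alternative chosen after seeing the data, gave 1.23 for Bnip3 and 1.01 for Egln1.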

How the results depend on the processing

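No paired analysis was possible because each condition had 1 library and no result came from a test. The number of members 2-fold or more higher in OIR in microglia was 1 instead of 2 with a CD45 limit of 25%, no integration, no gene number filter, at least 2000 UMIs per cell, Malat1 at least 0.1%, a Ptprc UMI required, rod genes under 0.5%, or the unnamed myeloid clusters counted as microglia (chosen after seeing the data), and 4 with no minimum level. Both members called in microglia kept a 2-fold ratio in all 32 recomputed ratios, and the lower counts come from Egln3 falling under the level limit. Macrophages gave 0 instead of 1 with a mitochondrial limit of 10%, a mean over cells or cells thinned to 1000 UMIs, 2 at 1.5-fold and 5 with no minimum level. Monocytes gave 2 instead of 1 with no integration or no gene number filter, 4 at 1.5-fold and 3 with no minimum level. Rods gave 1 instead of 3 with at least 2000 UMIs, centred ratios or thinned cells, and 0 with Malat1 at least 0.1%. Of the 189 RA and 153 OIR rods, 150 and 83 had at least 1000 UMIs and 35 and 17 at least 2000. Only 8 and 6 had Malat1 at least 0.1%. The log2 ratio turned to −0.000713 for Ddit4 in rods with at least 2000 UMIs and to −0.16 for Egln1 in thinned monocytes, and the cause was not tested. The Egln1 value rested on 4 RA and 6 OIR cells with a UMI. Depth limits the rods most, where 3 UMIs stand for 10.2 CPM in RA and 15.5 CPM in OIR.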
